A study of Homo sapiens with 30 samples.

Results

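Caco2 cells that carried a SETDB1 hairpin and were sorted as KRT20-negative were compared with Caco2 cells that carried a scrambled hairpin and grew in differentiation medium. Libraries were chosen by their titles, 3 per group and 6 of the 30 libraries of the series, and all genes were used. Caco2 is a colorectal cancer line grown from a colon adenocarcinoma that turns into enterocyte-like cells at confluence. All groups were transduced with retrovirus and selected with puromycin. The differentiation medium held troglitazone (10 uM), an agonist of the nuclear receptor PPARG, and 1α,25-dihydroxyvitamin D3 (25 nM), the ligand of the vitamin D receptor, from 3 days after transduction. Scramble cells in vehicle and SETDB1-hairpin cells sorted as KRT20-positive, 3 libraries each, give the context. The labels do not state the medium of the SETDB1-hairpin cells, whether more than 1 hairpin was used, or any sort of the scramble cells. Hairpin, sort and a possible difference in medium therefore cannot be told apart in this comparison. Nothing says that replicates were separate cultures, so p-values reflect only the scatter among these libraries, which may be technical.

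SETDB1 is a methyltransferase that trimethylates lysine 9 of histone H3. It is brought to chromatin by zinc finger proteins through TRIM28 or by the HUSH complex, is held stable in the nucleus by its partner ATF7IP, and silences repeats, clusters of zinc finger genes and some genes of other lineages. KRT20 is a keratin of mature intestinal epithelium. Its absence alone does not set how mature the sorted cells were, and their other absorptive markers were mixed, as given below. Expression was read with QuantSeq, which sequences 1 short stretch close to the poly(A) tail of a transcript, and levels are given as CPM, the counts of a gene relative to the library total scaled with TMM factors. In bulk samples such as these, fewer cells of a type and less RNA per cell cannot be told apart.

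SETDB1 itself, the targeted gene, stood at 19.5, 23.8 and 21.0 CPM in the KRT20-negative libraries, against 32.6, 32.1 and 37.9 CPM in scramble cells in differentiation medium. The groups did not overlap, and the level was 21.4 ± 2.17 CPM in KRT20-negative cells and 34.2 ± 3.21 CPM in scramble cells (SD, n = 3 each). The log2 fold change was -0.68 (SE 0.13, edgeR adjusted p = 0.000167). KRT20, the gene of the sort, stood at 1.03, 1.76 and 1.11 CPM in KRT20-negative cells, against 8.84, 8.14 and 6.06 CPM in scramble cells in differentiation medium. That difference follows from the sort and is no finding, and the KRT20-negative values lie beside the vehicle mean of 1.01 CPM. The KRT20-positive sort averaged 32.9 CPM.

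The 6 libraries held 6656420 to 10074838 counts, at which 3 counts, the level that a count of 0 allows, amount to 0.304 to 0.461 CPM over the 12 Caco2 libraries. These limits cover counting error only. The epithelial markers EPCAM, CDH1, KRT8, KRT18 and KRT19 together reached 3034 to 3464 CPM in KRT20-negative cells and 5147 to 5349 CPM in scramble cells in differentiation medium. EPCAM alone stood at 663, 652 and 525 CPM in KRT20-negative cells, against 659, 632 and 656 CPM in scramble cells. The 24 leukocyte and endothelial markers summed to 75.2 to 77.5 CPM in KRT20-negative cells and 74.3 to 81.1 CPM in scramble cells.

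KRT20-negative replicate 3 stood apart from the other libraries. Of 30 fibroblast markers, 27 had their highest value of all 12 Caco2 libraries in it, and the whole list summed to 13470, 13620 and 18710 CPM in KRT20-negative replicates 1 to 3, against 10430 to 11380 CPM in scramble cells in differentiation medium. COL6A3, a chain of type VI collagen, stood at 9.81, 7.26 and 264 CPM in KRT20-negative cells, against 7.54, 9.98 and 17.4 CPM in scramble cells. VIM, the intermediate filament of mesenchymal cells, stood at 2.85, 3.40 and 34.7 CPM in KRT20-negative cells, against 2.95, 3.84 and 5.42 CPM in scramble cells. No listed fibroblast marker was at 0 in either group, and most of the sum is FN1, a fibronectin that these epithelial cells express in every library. In a chi-square test of counts, KRT20-negative replicate 3 gave 15.8 and 16.2 per degree of freedom against its own replicates, and the other replicate pairs 2.21 to 4.97. Of the 23 fibroblast genes tested, 4 were called higher and 1 lower; without replicate 3 these counts were 3 and 4, without replicate 1 of the same group 11 were called higher, and without its replicate 2, 13 higher and 2 lower. Without scramble differentiation medium replicate 2 the lower count was 2. The part of this library in other results was not tested beyond leaving it out, and list counts without it are given beside the main ones where they differ.

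Across 13968 tested genes, 5312 were called at 5 percent FDR (Benjamini-Hochberg over all tested genes), which is 38.0 percent. Called higher in KRT20-negative SETDB1-hairpin cells were 2739 genes (19.6 percent), and called lower 2573 (18.4 percent). Of at least 2-fold were 1224 genes (8.76 percent), with 823 genes higher (5.89 percent) and 401 lower (2.87 percent). The 3 and 3 libraries did not overlap for 6439 genes (46.1 percent). The median log2 fold change over all tested genes was 0.02. Without KRT20-negative replicate 3, 5265 genes were called, 2585 higher and 2680 lower. Of the tested genes, 752 did not pass the low-count filter in the scramble groups alone. In the SETDB1-hairpin groups alone 387 did not pass, and some genes are in both counts. In both kinds of cell 12990 passed. Of these 12990 genes, 2499 were called higher and 2493 lower. A gene that did not pass in both could enter the test through a difference between them, but most such genes were not called. For several lists that hold such genes, but not for all, the count over members that passed in both kinds of cell is added. That choice was made after seeing the data. Because so many genes moved, the count for each gene group below is read beside these shares. In the same fit, differentiation medium against vehicle in scramble cells gave 2925 calls (20.9 percent), 1454 higher (10.4 percent) and 1471 lower (10.5 percent). The differentiation medium libraries serve in both comparisons, so values of each are given side by side and nothing is drawn from their likeness.

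**Figure D1:**
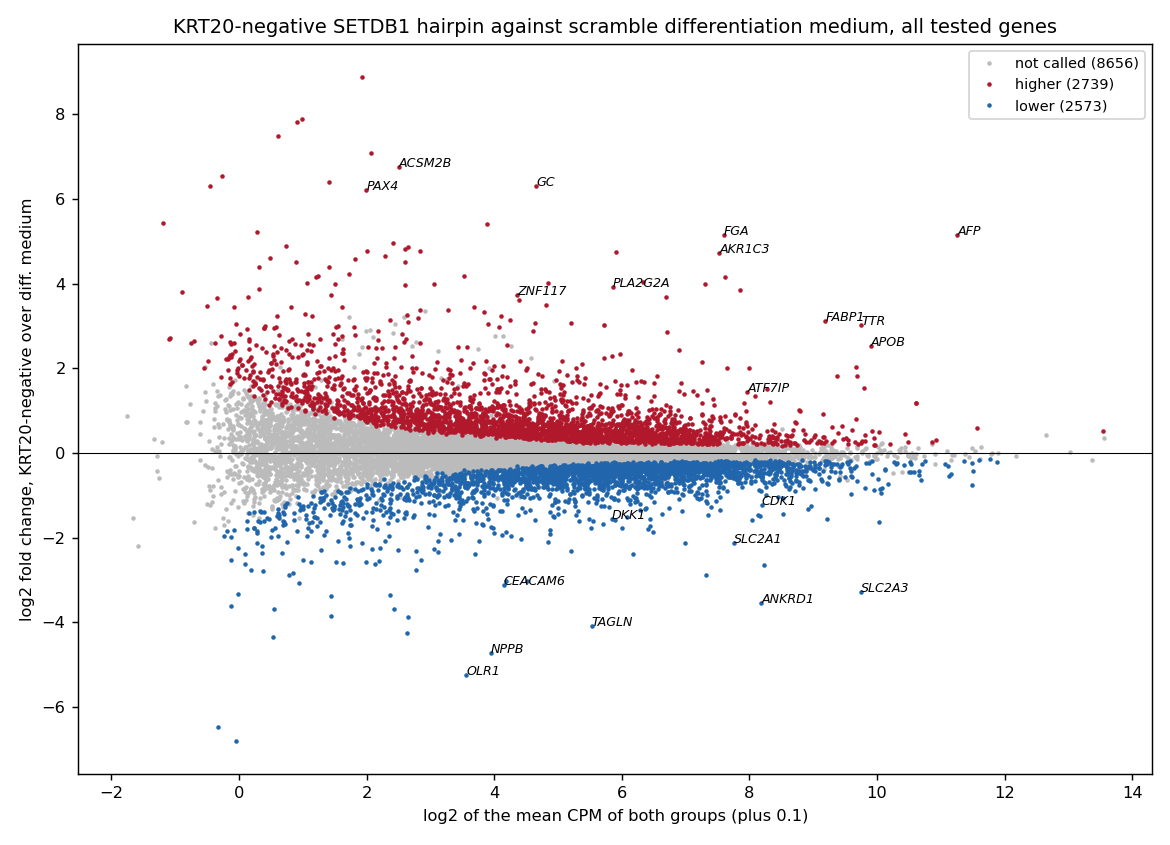
Log2 fold change of KRT20-negative SETDB1-hairpin cells over scramble cells in differentiation medium (vertical axis) against the log2 mean CPM of both groups (horizontal axis) for 13968 tested genes, 1 point per gene. Genes called higher (2739, red) reach further from 0 than genes called lower (2573, blue), and the labelled AFP, FGA, TAGLN and SLC2A3 stand far out at high or middle levels.

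Among the genes furthest up were those of plasma proteins that the fetal liver and yolk sac secrete. Of 26 tested members of that list, 24 were called higher and 1 lower, with a median log2 fold change of 2.46 beside 0.02 for all tested genes, and 20 were at least 2-fold higher. Of the 35 genes listed, 24 passed the low-count filter in both kinds of cell, and of these 22 were called higher, with a median of 2.00. All 24 called higher were also above their mean level in vehicle. AFP, the α-fetoprotein, stood at 5152, 5270 and 3853 CPM in KRT20-negative cells, against 135, 123 and 143 CPM in scramble cells in differentiation medium. This is a 35.6-fold difference with no overlap (log2 fold change 5.15, SE 0.11, edgeR adjusted p = 1.74e-18), and the vehicle mean was 404 CPM. FGA, the α chain of fibrinogen, stood at 371, 373 and 389 CPM in KRT20-negative cells, against 9.90, 9.98 and 11.9 CPM in scramble cells. Its log2 fold change was 5.15 (SE 0.10, edgeR adjusted p = 8.28e-22), again with no overlap.

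GC, the vitamin D-binding protein of plasma, stood at 52.0, 46.3 and 50.4 CPM in KRT20-negative cells, against 0.707, 0.154 and 0.903 CPM in scramble cells in differentiation medium, a log2 fold change of 6.30 (SE 0.22, edgeR adjusted p = 7.52e-17). With 14 counts in differentiation medium and 8 in vehicle, GC entered the test only through SETDB1-hairpin cells, so its p-value is no separate support. ALB, serum albumin, averaged 14.6-fold higher, at 443, 479 and 370 CPM in KRT20-negative cells, against 31.0, 25.0 and 32.5 CPM in scramble cells. APOH, a phospholipid-binding plasma protein, stood at 398, 377 and 345 CPM in KRT20-negative cells, against 21.9, 19.5 and 21.3 CPM in scramble cells. None of these groups of 3 overlapped. TTR, the carrier of thyroxine and retinol-binding protein, was already abundant in scramble cells and still 8.15-fold higher, at 1485, 1460 and 1672 CPM in KRT20-negative cells, against 177, 194 and 195 CPM in scramble cells. TF, transferrin, had 218 counts in KRT20-negative cells and 1 count in scramble cells, a ratio of 189 with a 95 percent counting interval of 33.5 to 7490. The member called lower was VTN, vitronectin, at a log2 fold change of -0.41, which lost its call without scramble differentiation medium replicate 1 or replicate 2, where the list's lower count was 0. In the medium comparison 4 members of the list were called higher and 15 lower, with a median log2 fold change of -0.46.

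HNF4A, a nuclear receptor of liver and gut epithelium, had a log2 fold change of 0.53 (SE 0.09, edgeR adjusted p = 4.18e-05), far less than these genes.

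**Figure D2:**
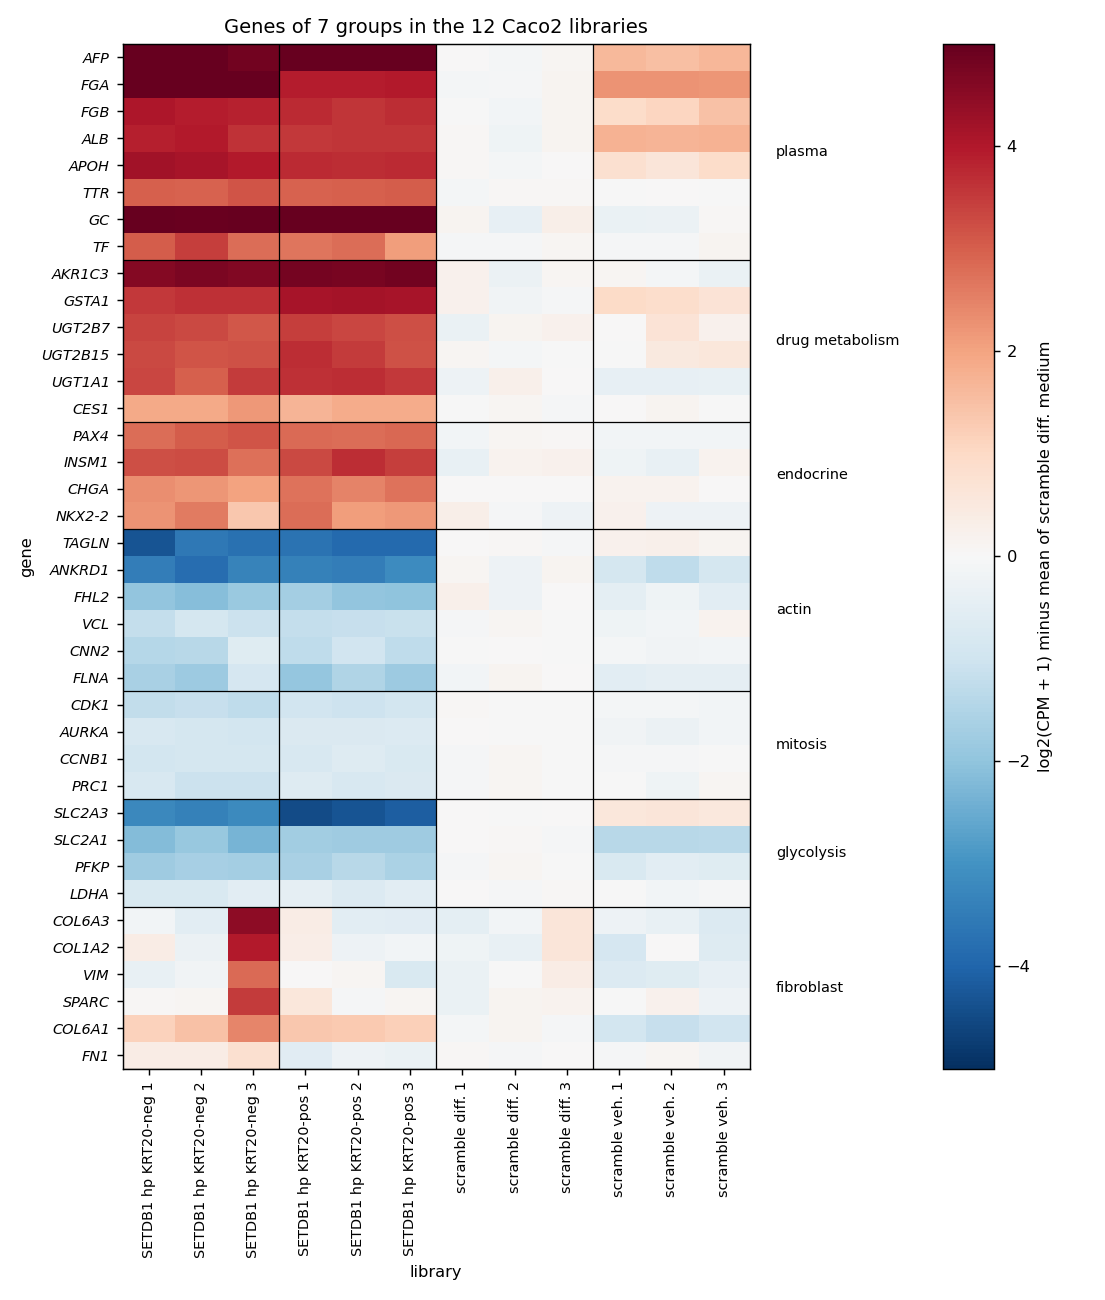
Difference of log2(CPM + 1) from the mean of scramble cells in differentiation medium, for genes of 7 groups (rows) in the 12 Caco2 libraries (columns). Plasma protein, drug metabolism and endocrine genes are high in all 6 SETDB1-hairpin libraries and actin and glycolysis genes low, while COL6A3, COL1A2, VIM and SPARC are high in KRT20-negative replicate 3 alone (264 CPM of COL6A3 there).

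Genes of lipoprotein assembly and of enterocyte fat handling moved the same way. Of 22 tested apolipoprotein and chylomicron genes, 19 were called higher and 1 lower, with a median log2 fold change of 1.12. Without KRT20-negative replicate 3, 18 were higher. APOB, the scaffold of chylomicrons and low density lipoprotein, stood at 1604, 1480 and 1793 CPM in KRT20-negative cells, against 291, 257 and 300 CPM in scramble cells in differentiation medium (log2 fold change 2.52, SE 0.08, edgeR adjusted p = 9.69e-18). FABP1, the liver fatty acid-binding protein of enterocytes, stood at 1161, 1024 and 953 CPM in KRT20-negative cells, against 130, 106 and 127 CPM in scramble cells. Neither pair of groups overlapped. MTTP, which loads lipid onto APOB, stood at 24.3, 25.8 and 19.9 CPM in KRT20-negative cells, against 2.36, 2.92 and 1.16 CPM in scramble cells, with a log2 fold change of 3.45 (SE 0.23). APOA1 and APOA2, the main proteins of high density lipoprotein, had log2 fold changes of 1.81 and 1.54. ACSL5, an acyl-CoA synthetase, was the member called lower, at -0.74. In the medium comparison 4 members were called higher and 13 lower.

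Drug-metabolizing enzymes of liver and gut were mostly called higher. Of 31 tested members of this list, 21 were called higher and 5 lower, with a median log2 fold change of 1.06, and 17 were at least 2-fold higher. The higher count was 19 without KRT20-negative replicate 3. Only through SETDB1-hairpin cells did 8 of the tested members pass the low-count filter, and of the other 23, 15 were called higher, with a median of 0.99. AKR1C3, an aldo-keto reductase that acts on steroids and prostaglandins, stood at 344, 369 and 354 CPM in KRT20-negative cells, against 15.4, 10.4 and 14.2 CPM in scramble cells in differentiation medium, 26.6-fold higher. GSTA1, a glutathione transferase, stood at 180, 196 and 198 CPM in KRT20-negative cells, against 17.3, 12.9 and 14.2 CPM in scramble cells. UGT2B7, a glucuronosyltransferase, stood at 42.0, 39.5 and 34.7 CPM in KRT20-negative cells, against 2.24, 3.53 and 3.74 CPM in scramble cells. The groups did not overlap for any of these genes. The related enzymes UGT2B15, UGT2B10 and UGT1A1 had log2 fold changes of 4.86, 4.81 and 4.76. CES1, a carboxylesterase, had one of 2.01.

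Members of the AKR1C, GSTA and UGT2B families are close copies of each other, and all UGT1A transcripts end in common exons, so how tags were divided within each family is uncertain. The called members lay side by side. In the gene order of RefSeq GRCh38.p14, 8 consecutive tested genes of chromosome 4, from UGT2B17 to the sulfotransferase SULT1E1, were called higher. So were AKR1C1, AKR1C2, AKR1C3, AKR1C4 and TUBAL3 on chromosome 10, and GSTA2, GSTA1, GSTA5 and GSTA4 with ICK and FBXO9 on chromosome 6. The members called lower were AKR1B10 (log2 fold change -1.30), CYP1A1 (-1.17), CYP2S1 (-0.75), ABCG2 (-0.72) and ABCB1 (-0.45). AKR1B10 kept no call without KRT20-negative replicate 2 or 3 or scramble differentiation medium replicate 1 or 3 (log2 fold changes -1.15, -0.91, -1.21 and -1.21), and stood at -2.09 without KRT20-negative replicate 1. CYP1B1, another cytochrome P450, was called lower when KRT20-negative replicate 3 was left out (-2.10). ABCG2 and ABCB1 are drug efflux pumps, and CYP1A1 and CYP2S1 are cytochromes P450 that the aryl hydrocarbon receptor can induce.

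Among markers of mature absorptive cells the picture was mixed. Of 31 tested enterocyte and colonocyte genes, 15 were called higher (48.4 percent) and 6 lower (19.4 percent). Of the 27 of them that passed the low-count filter in both kinds of cell, 14 were higher and 6 lower. Of 18 brush border hydrolases and transporters 8 were higher (44.4 percent) and 3 lower (16.7 percent). Of the 14 of these that passed the low-count filter in both kinds of cell, 5 were higher and 2 lower. The lower shares of both lists are near the 18.4 percent of all tested genes, of which 19.6 percent were higher. Without KRT20-negative replicate 3 the lower counts were 4 in both lists, and without KRT20-negative replicate 2 the brush border count was 5. LCT, the lactase of the brush border, stood at 45.3, 53.1 and 45.1 CPM in KRT20-negative cells, against 15.6, 15.2 and 12.8 CPM in scramble cells in differentiation medium. SI, sucrase-isomaltase, had 59 counts in KRT20-negative cells and 2 in scramble cells, a ratio of 21.2 with a 95 percent counting interval of 5.62 to 179, and both scramble counts lie in replicate 2. GUCY2C, the guanylin receptor of intestinal epithelium and a gene on no list, stood at 27.6, 31.3 and 20.8 CPM in KRT20-negative cells, against 2.24, 2.77 and 4.64 CPM in scramble cells. Its groups did not overlap (log2 fold change 3.04, SE 0.25, edgeR adjusted p = 1.11e-08).

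CEACAM6 and CEACAM1, adhesion proteins of the carcinoembryonic family, fell instead. CEACAM6 stood at 4.56, 2.93 and 3.44 CPM in KRT20-negative cells, against 35.4, 28.9 and 30.7 CPM in scramble cells in differentiation medium, a log2 fold change of -3.12 (SE 0.20, edgeR adjusted p = 1.12e-11). Its vehicle mean was 2.80 CPM, below both. CEACAM1 had a log2 fold change of -1.65. CEACAM5 had one of -0.64, and kept no call without KRT20-negative replicate 3 (-0.39) or scramble differentiation medium replicate 1 (-0.38). Reads may be shared among these close paralogs. SLC15A1, the peptide transporter of the brush border, stood at 7.41, 5.27 and 7.49 CPM in KRT20-negative cells, against 16.4, 15.4 and 14.4 CPM in scramble cells and a mean of 6.29 CPM in vehicle. VIL1, the villin of microvilli, did not pass the test, at a log2 fold change of -0.15 (SE 0.08, edgeR adjusted p = 0.152).

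PAX4, INSM1 and CHGA, genes of hormone-secreting gut cells, were called higher and stood at no more than 0.516 CPM in any scramble library in differentiation medium. Of 28 enteroendocrine genes listed, 11 were tested, with 7 called higher and 0 lower. Of these 11, 6 passed the low-count filter only through SETDB1-hairpin cells and 1 only through scramble cells, and of the 4 that passed in both, 1 was called higher, with a median log2 fold change of 0.34. The list's count is therefore no support for a change of the group. The 28 markers summed to 155 to 176 CPM in KRT20-negative cells and 76.7 to 83.4 CPM in scramble cells in differentiation medium. INSM1, a zinc finger factor of endocrine cells, stood at 11.3, 11.4 and 7.80 CPM in KRT20-negative cells, against 0, 0.461 and 0.516 CPM in scramble cells (log2 fold change 4.96, SE 0.44, edgeR adjusted p = 5.75e-09). It had 7 counts in differentiation medium and 4 in vehicle and entered the test only through SETDB1-hairpin cells, so its p-value is no separate support. PAX4, a homeobox factor of endocrine lineages, had 210 counts in KRT20-negative cells and 2 in scramble cells, a ratio of 81.6 with a 95 percent counting interval of 22.3 to 679. CHGA, chromogranin A of secretory granules, had 96 counts in KRT20-negative cells and 0 in scramble cells, which makes it at least 26.9-fold higher against 3 counts over the group. NEUROG3, the factor that starts the endocrine lineage in the gut, was at 0 counts in both groups, and NEUROD1 had 1 count in KRT20-negative cells and 0 in scramble cells. CPE, a carboxypeptidase that matures peptide hormones, makes up most of that sum, at 108, 129 and 135 CPM in KRT20-negative cells, against 69.2, 67.1 and 65.3 CPM in scramble cells.

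Other secretory markers moved less as a group. Of 13 tested goblet cell genes, 5 were called higher (38.5 percent, 7 genes without KRT20-negative replicate 3) and 1 lower (7.69 percent). Over all tested genes the shares were 19.6 and 18.4 percent. Of the 10 goblet genes that passed the low-count filter in both kinds of cell, 4 were called higher and 1 lower, with a median of 0.21. The member called lower, CREB3L1, kept no call without KRT20-negative replicate 1 or scramble differentiation medium replicate 2 or 3 (log2 fold changes -0.43, -0.51 and -0.56). The lower count of the list was then 0 without either of the scramble replicates, and 2 without KRT20-negative replicate 2. TFF3, a trefoil peptide of goblet cells, stood at 121, 141 and 147 CPM in KRT20-negative cells, against 39.0, 47.5 and 44.9 CPM in scramble cells in differentiation medium. Its mean in vehicle was 95.2 CPM, and its log2 fold change against the medium was 1.65 (SE 0.10, edgeR adjusted p = 6.35e-12). MUC2, the gel-forming mucin that defines goblet cells, stood at 1.25, 0.351 and 1.32 CPM in KRT20-negative cells, against 0.236, 0.614 and 0.129 CPM in scramble cells, and did not pass the test (edgeR adjusted p = 0.0748). Of 5 tested tuft and Paneth cell genes, 2 were called higher and 1 lower, with a median log2 fold change of -0.06. The member called lower was LYZ, the lysozyme of Paneth granules, at -0.26 (edgeR adjusted p = 0.0286), which kept no call without KRT20-negative replicate 3 or scramble differentiation medium replicate 1 or 2 (-0.20, -0.22 and -0.27). PLA2G2A, a secreted phospholipase of Paneth cells, stood at 104, 106 and 115 CPM in KRT20-negative cells, against 6.60, 7.22 and 7.74 CPM in scramble cells, a 15.1-fold difference without overlap (edgeR adjusted p = 2.39e-18).

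**Figure D3:**
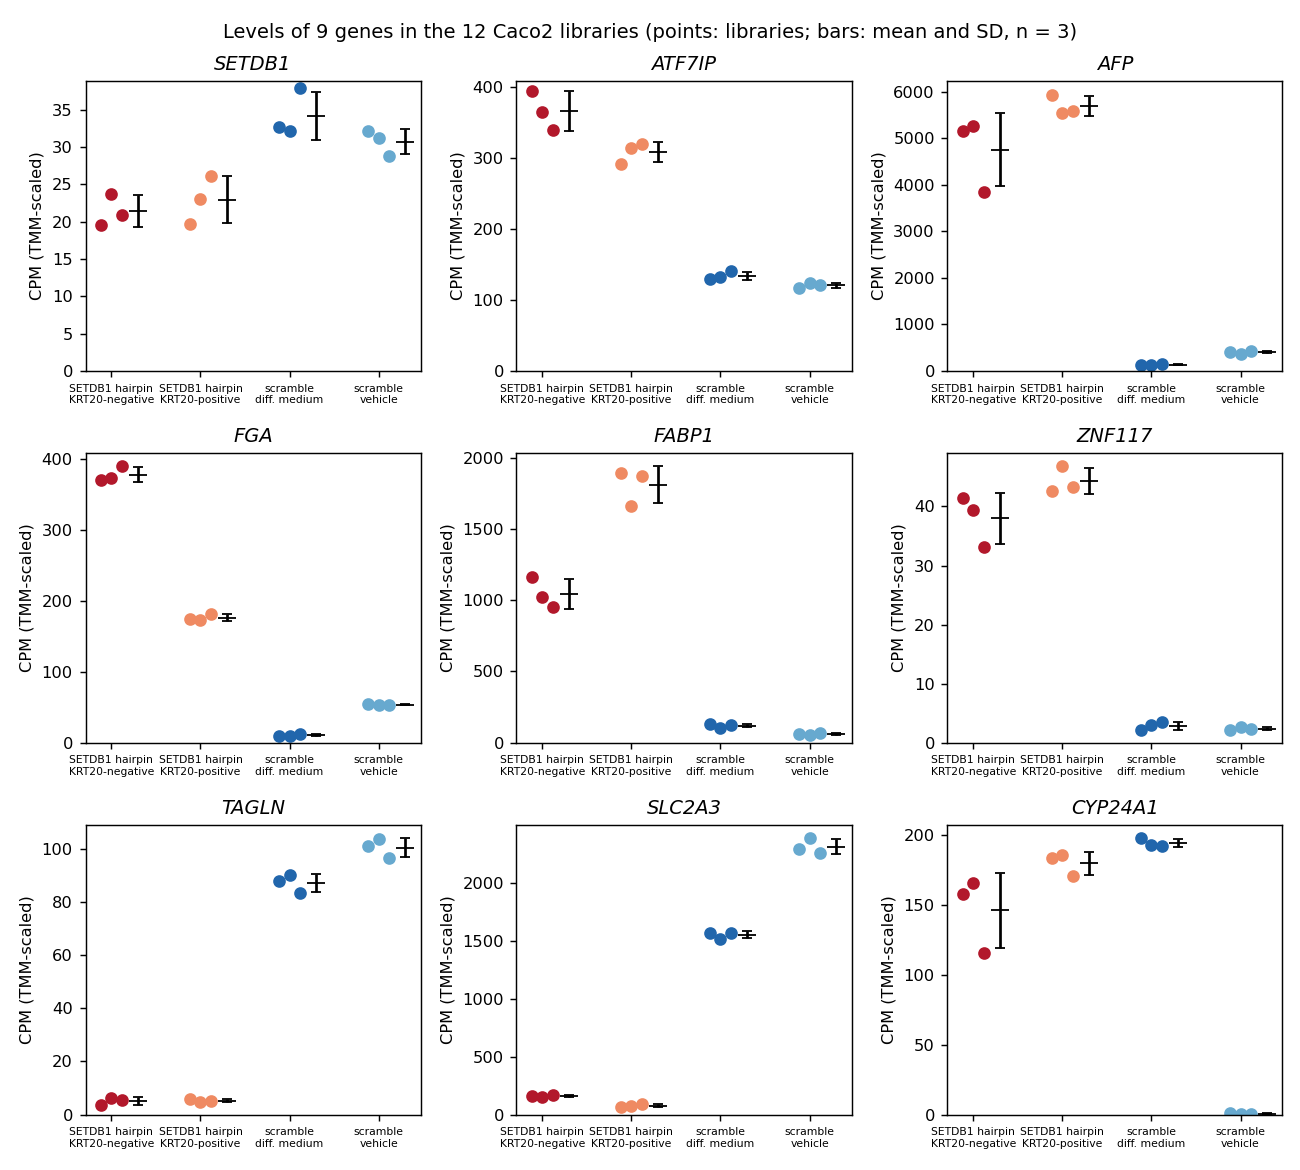
Level in CPM (vertical axes, from 0) of 9 genes in the 12 Caco2 libraries, by group (horizontal axes), with the mean and SD of 3 libraries beside the points. SETDB1 lies at 19.5 to 23.8 CPM in KRT20-negative cells, AFP, FGA, FABP1 and ZNF117 are high in both SETDB1-hairpin groups and low in scramble cells, TAGLN and SLC2A3 are low in both, and CYP24A1 is near 0 in the vehicle libraries and above 100 CPM in the other groups.

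Zinc finger genes were called higher far more often than lower, most of them by less than 2-fold. Of 404 tested genes whose symbol begins with ZNF, 157 were called higher and 10 lower, with a median log2 fold change of 0.40, and 59 were at least 2-fold higher. Without KRT20-negative replicate 3, 148 were higher and 10 lower. Of the 364 that passed the low-count filter in both kinds of cell, 143 were called higher and 10 lower, with a median of 0.37. ZNF91, a repressor of primate retroelements, stood at 29.0, 26.2 and 33.5 CPM in KRT20-negative cells, against 3.18, 3.23 and 4.90 CPM in scramble cells in differentiation medium, a log2 fold change of 2.96 (SE 0.17, edgeR adjusted p = 2.33e-12). ZNF117 stood at 41.4, 39.5 and 33.1 CPM in KRT20-negative cells, against 2.12, 3.07 and 3.48 CPM in scramble cells. ERV3-1, an endogenous retroviral envelope gene that overlaps ZNF117, had a log2 fold change of 3.96, and tags of these genes may be shared. ZNF320, ZNF69 and ZNF160 had log2 fold changes of 1.93, 3.99 and 1.87. ZNF genes resemble each other, and how tags that match several of them were counted is not stated.

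The members called higher were most frequent on chromosome 19, which carries the large clusters of these genes. There 98 of 189 ZNF genes were called higher (51.9 percent) and 2 lower, with a median log2 fold change of 0.68. On other chromosomes 59 of 215 were called higher (27.4 percent) and 8 lower, with a median of 0.28. The remaining 770 tested genes of chromosome 19 gave 149 higher calls (19.4 percent), a share near the background. Among neighbouring tested genes, the longest run of higher calls was 14 genes on chromosome 19, from ZNF682 through ZNF91 to ZNF675, with log2 fold changes of 0.53 to 2.96. Other runs there held 10 genes from SPACA6P to ZNF616 and 9 from ZNF468 to ZNF818P. ZNF616 kept no call without KRT20-negative replicate 1 (log2 fold change 1.12), and ZNF468 none without KRT20-negative replicate 1 or 3 or scramble differentiation medium replicate 1 or 3 (0.33 to 0.39). ZNF816 and ZNF347 of the last run also lost the call without at least 1 library. In the run of 14 genes, ZNF100 kept no call without KRT20-negative replicate 1 or 2 (0.59 and 0.48). Nor did it without scramble differentiation medium replicate 2 or 3 (0.72 and 0.54). ZNF724P kept none without KRT20-negative replicate 2 (1.20) or scramble differentiation medium replicate 1 (1.17). Over the genome 48 runs of at least 4 higher calls and 26 of lower calls were counted among 13690 genes placed on RefSeq GRCh38.p14, with no test of these counts.

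**Figure D4:**
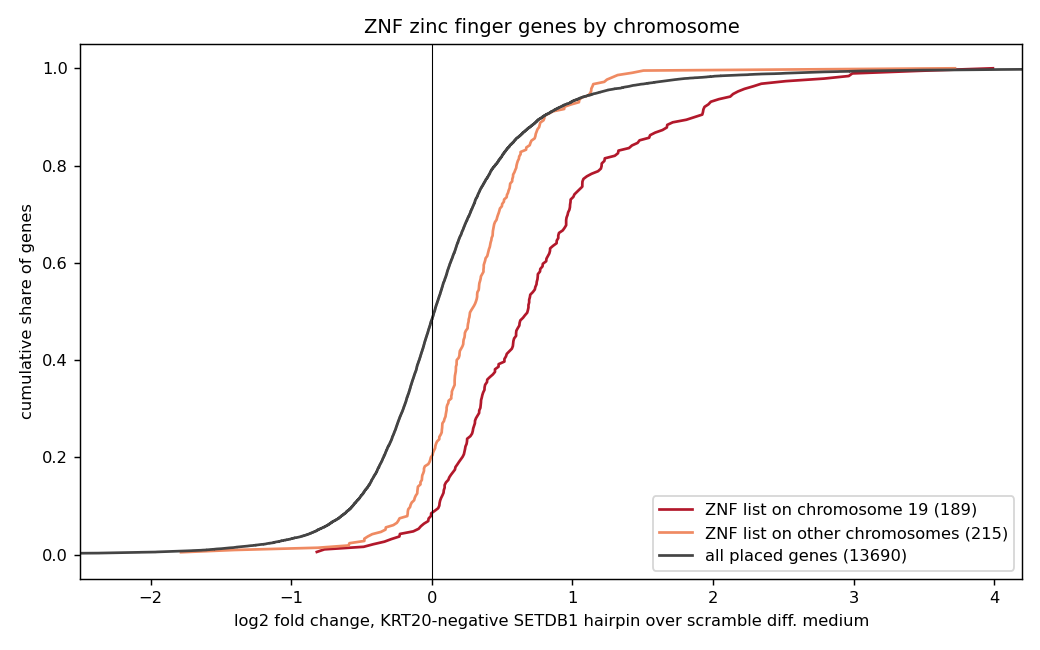
Cumulative share of genes (vertical axis) by log2 fold change of KRT20-negative SETDB1-hairpin cells over scramble cells in differentiation medium (horizontal axis, cut at its ends). The curve of 189 ZNF genes on chromosome 19 (median 0.68) lies to the right of the curve of 215 ZNF genes elsewhere (median 0.28), and both to the right of all 13690 placed genes (median 0.02).

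Of 26 tested genes of the H3K9 methylation machinery, 5 were called higher (19.2 percent) and 8 lower (30.8 percent), beside 19.6 and 18.4 percent of all tested genes, and 13 were not called. The share called higher is near the background. The counts were 7 and 7 without KRT20-negative replicate 3. ATF7IP, the partner that stabilizes SETDB1, stood at 395, 365 and 339 CPM in KRT20-negative cells, against 130, 132 and 140 CPM in scramble cells in differentiation medium, 2.73-fold higher (log2 fold change 1.45, SE 0.08, edgeR adjusted p = 3.71e-13). Its paralog ATF7IP2 stood at 42.2, 41.5 and 46.9 CPM in KRT20-negative cells, against 20.2, 15.5 and 19.4 CPM in scramble cells. ATRX, a chromatin remodeller of heterochromatin, had a log2 fold change of 0.67. DNMT3B, a de novo DNA methyltransferase, stood at 43.4, 50.1 and 33.4 CPM in KRT20-negative cells, against 97.5, 103 and 89.9 CPM in scramble cells, a log2 fold change of -1.20 (SE 0.12). TRIM28 was called lower at -0.34, but not without scramble differentiation medium replicate 2 (-0.25). SUV39H2, another H3K9 methyltransferase, was called lower at -0.56, but not without KRT20-negative replicate 3 (-0.44) or scramble differentiation medium replicate 1 (-0.40). MORC2, an effector of the HUSH pathway, and FAM208A, a subunit of the HUSH complex, did not pass the test (log2 fold changes -0.06 and -0.07).

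Of 21 tested interferon and double-stranded RNA genes, 6 were called higher (28.6 percent) and 2 lower (9.52 percent), beside 19.6 and 18.4 percent of all tested genes. None of these 8 calls reached 2-fold, and the median log2 fold change was 0.24. Leaving out KRT20-negative replicate 3 gave 5 higher and 3 lower. The lower count was 1 without KRT20-negative replicate 1, and likewise without scramble differentiation medium replicate 2 or 3. DTX3L and PARP9, partners in a ubiquitin ligase induced by interferon, had log2 fold changes of 0.66 and 0.83, and MAVS, the adaptor of cytosolic RNA sensors, one of 0.53. ISG15, a classical interferon-induced protein, stood at 10.2, 11.7 and 14.6 CPM in KRT20-negative cells, against 10.5, 11.5 and 13.7 CPM in scramble cells in differentiation medium, and did not pass the test (edgeR adjusted p = 0.906). OAS1, a sensor of double-stranded RNA, fell to 13.1, 12.2 and 19.6 CPM in KRT20-negative cells, against 23.8, 27.2 and 21.8 CPM in scramble cells. The core of the interferon-stimulated response element was searched on either strand, as GAAA, any 2 bases and GAAA again, in RefSeq promoters of GRCh38.p14, from 250 bases before to 50 bases after the gene start. It was in 11 of 18 promoters of the list (61.1 percent) and in 3.65 percent of all 27305 promoters. Such a match is a string of letters and not a measured site. Both called and uncalled members are in the share, and a list of interferon genes was chosen, so the share says nothing of this comparison.

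Direct targets of the medium's agonists did not move together. CYP24A1, the vitamin D-degrading enzyme and most strongly induced target of the vitamin D receptor, stood at 157, 165 and 116 CPM in KRT20-negative cells, against 197, 193 and 192 CPM in scramble cells in differentiation medium and a mean of 0.622 CPM in vehicle. The difference between the KRT20-negative and medium groups was -0.41 on the log2 scale (SE 0.11, edgeR adjusted p = 0.00382), and -0.27 without KRT20-negative replicate 3 (edgeR adjusted p = 0.00729). Of 23 tested targets of the receptor, 7 were called higher (30.4 percent, 8 genes without KRT20-negative replicate 3) and 6 lower (26.1 percent). Over all tested genes the shares were 19.6 and 18.4 percent. Of the 20 members that passed the low-count filter in both kinds of cell, 6 were called higher and 6 lower. The median log2 fold change of the list was 0.02, and the medium against vehicle gave 11 higher and 1 lower. TRPV6, a calcium channel, stood at 3.88, 5.15 and 5.77 CPM in KRT20-negative cells, against 0.707, 1.84 and 0.774 CPM in scramble cells. CLDN2, a pore-forming claudin, fell to 42.7, 45.6 and 51.6 CPM in KRT20-negative cells, against 116, 113 and 122 CPM in scramble cells and a vehicle mean of 14.8 CPM. VDR, the receptor itself, had a log2 fold change of -0.70 (SE 0.13).

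Of 29 tested PPAR targets, 10 were called higher (34.5 percent, 9 genes without KRT20-negative replicate 3) and 7 lower (24.1 percent). Over all tested genes the shares were 19.6 and 18.4 percent. The median log2 fold change of the list was 0.14, and the medium gave 16 higher and 3 lower. PLIN2, a coat protein of lipid droplets, stood at 399, 359 and 390 CPM in KRT20-negative cells, against 589, 597 and 597 CPM in scramble cells in differentiation medium and a mean of 184 CPM in vehicle. CPT1A, the entry enzyme of mitochondrial fatty acid oxidation, stood at 120, 117 and 122 CPM in KRT20-negative cells, against 172, 168 and 182 CPM in scramble cells and a vehicle mean of 40.3 CPM. Both genes were thus lower than in the medium group and above vehicle. EHHADH, a peroxisomal enzyme of fatty acid oxidation, rose by 1.18 on the log2 scale (SE 0.15). PPARG had a log2 fold change of -0.75 and its partner RXRA one of 0.63 (edgeR adjusted p = 0.0116 and 3.33e-05). PPARG kept no call without scramble differentiation medium replicate 1 (-0.60).

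Actin-associated genes and targets of serum response factor and YAP fell almost as a block. Of 30 tested members, 25 were called lower and 1 higher, with a median log2 fold change of -0.70. Without KRT20-negative replicate 3, 26 were lower. TAGLN, the actin-binding transgelin, stood at 3.42, 6.33 and 5.57 CPM in KRT20-negative cells, against 87.7, 90.2 and 83.5 CPM in scramble cells in differentiation medium (log2 fold change -4.09, SE 0.14, edgeR adjusted p = 5.71e-17). ANKRD1, a nuclear ankyrin repeat protein and YAP target, stood at 47.8, 36.5 and 52.2 CPM in KRT20-negative cells, against 574, 445 and 589 CPM in scramble cells. FHL2, a LIM domain protein of focal adhesions, stood at 2.85, 2.46 and 3.24 CPM in KRT20-negative cells, against 17.2, 11.7 and 14.3 CPM in scramble cells. The groups did not overlap for any of the 3 genes. FLNA, the actin cross-linker filamin A, stood at 56.6, 50.1 and 97.9 CPM in KRT20-negative cells, against 162, 195 and 179 CPM in scramble cells, and CNN2, a calponin, at 24.3, 24.9 and 43.2 CPM in KRT20-negative cells, against 66.0, 68.2 and 66.9 CPM in scramble cells. Both were highest within their group in the library with the fibroblast markers. The member called higher was CTGF, a matricellular YAP target, at 92.8, 122 and 88.0 CPM in KRT20-negative cells, against 55.2, 47.2 and 42.8 CPM in scramble cells. The medium comparison called 7 of the list higher and 1 lower. SRF itself had a log2 fold change of -0.47 (SE 0.12).

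The CArG box, the motif of serum response factor, was searched in the same RefSeq promoters on both strands and, like the other motifs, was chosen after the values were seen. It was in 6 of 25 promoters of this list (24 percent) and in 1.29 percent of all promoters. The list names targets of this factor, called or not, so the share can follow from how the list was made. The sequences of 3 members whose transcripts fell by at least 2-fold follow, 5′ to 3′ up to the base before the start (GRCh38.p14), with the box in capitals.
FHL2 (chr2:105438514-105438633, minus strand): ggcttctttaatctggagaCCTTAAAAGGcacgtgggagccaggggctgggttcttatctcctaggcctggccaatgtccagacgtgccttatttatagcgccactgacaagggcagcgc
CNN2 (chr19:1026488-1026607, plus strand): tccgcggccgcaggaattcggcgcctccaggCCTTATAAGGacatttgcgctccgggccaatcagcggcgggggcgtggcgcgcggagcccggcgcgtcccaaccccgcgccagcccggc
FLNA (chrX:154374635-154374754, minus strand): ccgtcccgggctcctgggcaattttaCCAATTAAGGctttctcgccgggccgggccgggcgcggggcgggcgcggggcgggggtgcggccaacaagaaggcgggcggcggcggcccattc
The boxes begin 101, 89 and 94 bases before the start in FHL2, CNN2 and FLNA. TAGLN and ANKRD1 are not among the 6 promoters with a match in this window, from which nothing follows for the factor.

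Other genes far down included secreted and surface proteins. OLR1, a scavenger receptor for oxidized low density lipoprotein, stood at 0.114, 1.05 and 0.608 CPM in KRT20-negative cells, against 22.2, 23.4 and 23.0 CPM in scramble cells in differentiation medium, a log2 fold change of -5.24 (SE 0.29, edgeR adjusted p = 9.40e-13). NPPB, the B-type natriuretic peptide, stood at 1.60, 1.29 and 0.506 CPM in KRT20-negative cells, against 33.0, 27.2 and 28.6 CPM in scramble cells. SLC7A8, an exchanger of neutral amino acids, stood at 34.6, 35.4 and 43.4 CPM in KRT20-negative cells, against 270, 284 and 289 CPM in scramble cells. None of these groups overlapped. DPYSL3, a protein of the growth cone cytoskeleton, and UBASH3B, a tyrosine phosphatase, had log2 fold changes of -3.03 and -3.02. SH3TC2, FAM131B and IGFL2 had -4.26, -3.88 and -2.76. Far up beside the groups above were ACSM2B, a medium-chain acyl-CoA synthetase of liver and kidney mitochondria, and MALRD1, which in mouse raises the intestinal hormone that limits bile acid synthesis. ACSM2B had 305 counts in KRT20-negative cells and 2 in scramble cells, a ratio of 123 with a 95 percent counting interval of 33.7 to 1020. MALRD1 stood at 117, 119 and 110 CPM in KRT20-negative cells, against 4.71, 3.99 and 4.13 CPM in scramble cells.

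Mitotic genes were lower almost without exception. Of 38 tested, 36 were called lower and 0 higher, with a median log2 fold change of -0.68 and 4 at least 2-fold lower. CDK1, the kinase that drives entry into mitosis, stood at 175, 182 and 167 CPM in KRT20-negative cells, against 426, 403 and 400 CPM in scramble cells in differentiation medium (log2 fold change -1.23, SE 0.07, edgeR adjusted p = 1.50e-12). AURKA, a kinase of the spindle poles, stood at 289, 278 and 271 CPM in KRT20-negative cells, against 518, 498 and 502 CPM in scramble cells. CCNB1, the cyclin partner of CDK1, had a log2 fold change of -0.90, and PRC1, which bundles the central spindle, one of -0.98. CDC20, the activator of anaphase, stood at 36.7, 36.7 and 34.3 CPM in KRT20-negative cells, against 74.0, 77.1 and 64.6 CPM in scramble cells. DNA replication genes were lower by less. Of 44 tested, 21 were called lower and 0 higher, with a median of -0.31, TYMS, RRM1 and MCM3 at -0.54, -0.50 and -0.55. The medium comparison called 6 mitotic genes higher and 7 lower. CCND1, cyclin D1 and a Wnt target, stood at 208, 193 and 216 CPM in KRT20-negative cells, against 417, 392 and 414 CPM in scramble cells. CDKN1A, the p21 inhibitor, did not pass the test (log2 fold change 0.14, edgeR adjusted p = 0.584).

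Promoters of mitotic genes are known for the cell cycle homology region TTTGAA and the CCAAT box, which keep them silent or active through the cycle. On either strand TTTGAA was in 23 of 32 promoters of the list (71.9 percent) and in 15.4 percent of all promoters, and CCAAT in 25 of 32 (78.1 percent) and in 35.7 percent. The strings do not overlap in the examples below, which are given 5′ to 3′ up to the base before the start (RefSeq, GRCh38.p14) for 3 of the genes described, with both strings in capitals.
CDK1 (chr10:60778151-60778330, plus strand): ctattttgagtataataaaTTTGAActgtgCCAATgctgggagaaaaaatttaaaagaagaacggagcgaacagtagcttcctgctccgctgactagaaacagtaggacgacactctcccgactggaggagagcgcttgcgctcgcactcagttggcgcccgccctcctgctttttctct
PRC1 (chr15:90994536-90994655, minus strand): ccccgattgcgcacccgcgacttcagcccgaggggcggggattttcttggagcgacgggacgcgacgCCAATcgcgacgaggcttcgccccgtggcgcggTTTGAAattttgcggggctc
CDC20 (chr1:43358861-43358980, plus strand): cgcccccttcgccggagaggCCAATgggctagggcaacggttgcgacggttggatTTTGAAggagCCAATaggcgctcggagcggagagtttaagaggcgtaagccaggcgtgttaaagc
These promoters show what the members share in sequence, and the shares are a description without a test. Both shares cover called and uncalled members of a list chosen for mitosis, so they say nothing of this comparison.

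Glucose uptake and glycolysis genes were mostly called lower. Of 32 tested hypoxia and glycolysis genes, 18 were called lower and 4 higher (2 higher without KRT20-negative replicate 2, and 20 lower and 3 higher without its replicate 3), with a median log2 fold change of -0.54, beside 1 lower and 16 higher for the medium. SLC2A3, the neuronal type glucose transporter, stood at 163, 148 and 169 CPM in KRT20-negative cells, against 1569, 1515 and 1569 CPM in scramble cells in differentiation medium (log2 fold change -3.28, SE 0.08, edgeR adjusted p = 1.91e-19). Its near copy SLC2A14 may share its tags. SLC2A1, the ubiquitous glucose transporter, stood at 78.2, 93.7 and 69.0 CPM in KRT20-negative cells, against 353, 361 and 338 CPM in scramble cells. PFKP, a phosphofructokinase, stood at 19.9, 21.6 and 21.1 CPM in KRT20-negative cells, against 67.8, 75.7 and 69.0 CPM in scramble cells. No groups overlapped among these genes. ENO1 and GPI, enzymes of the shared glycolytic path, had log2 fold changes of -0.62 and -0.66. BNIP3 and NDRG1, which hypoxia induces, were called higher instead, at 0.66 and 0.49.

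Amino acid response genes driven by ATF4 were called lower more often than higher. Of 33 tested in the ATF4 and unfolded protein list, 16 were called lower and 5 higher (3 higher without scramble differentiation medium replicate 3, and 18 lower without KRT20-negative replicate 3), with a median log2 fold change of -0.31. ASNS, asparagine synthetase, stood at 46.5, 36.4 and 47.8 CPM in KRT20-negative cells, against 137, 119 and 133 CPM in scramble cells in differentiation medium (log2 fold change -1.57, SE 0.10, edgeR adjusted p = 3.32e-11). STC2, TRIB3 and MTHFD2 had -1.36, -1.27 and -1.13, and ATF4 itself -0.62. The members called higher included the endoplasmic reticulum chaperones HSP90B1, PDIA4 and CALR, at 0.25, 0.36 and 0.43. HSP90B1 kept no call without KRT20-negative replicate 1 (0.19), and PDIA4 none without KRT20-negative replicate 2 (0.23) or scramble differentiation medium replicate 3 (0.31). In sterol and fatty acid synthesis, 16 of 33 tested genes were called lower and 4 higher, 2 higher without KRT20-negative replicate 1 or scramble differentiation medium replicate 2. SCD, the stearoyl-CoA desaturase, stood at 778, 674 and 642 CPM in KRT20-negative cells, against 1359, 1168 and 1341 CPM in scramble cells. The medium alone called 24 of these 33 lower and 1 higher.

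**Figure D5:**
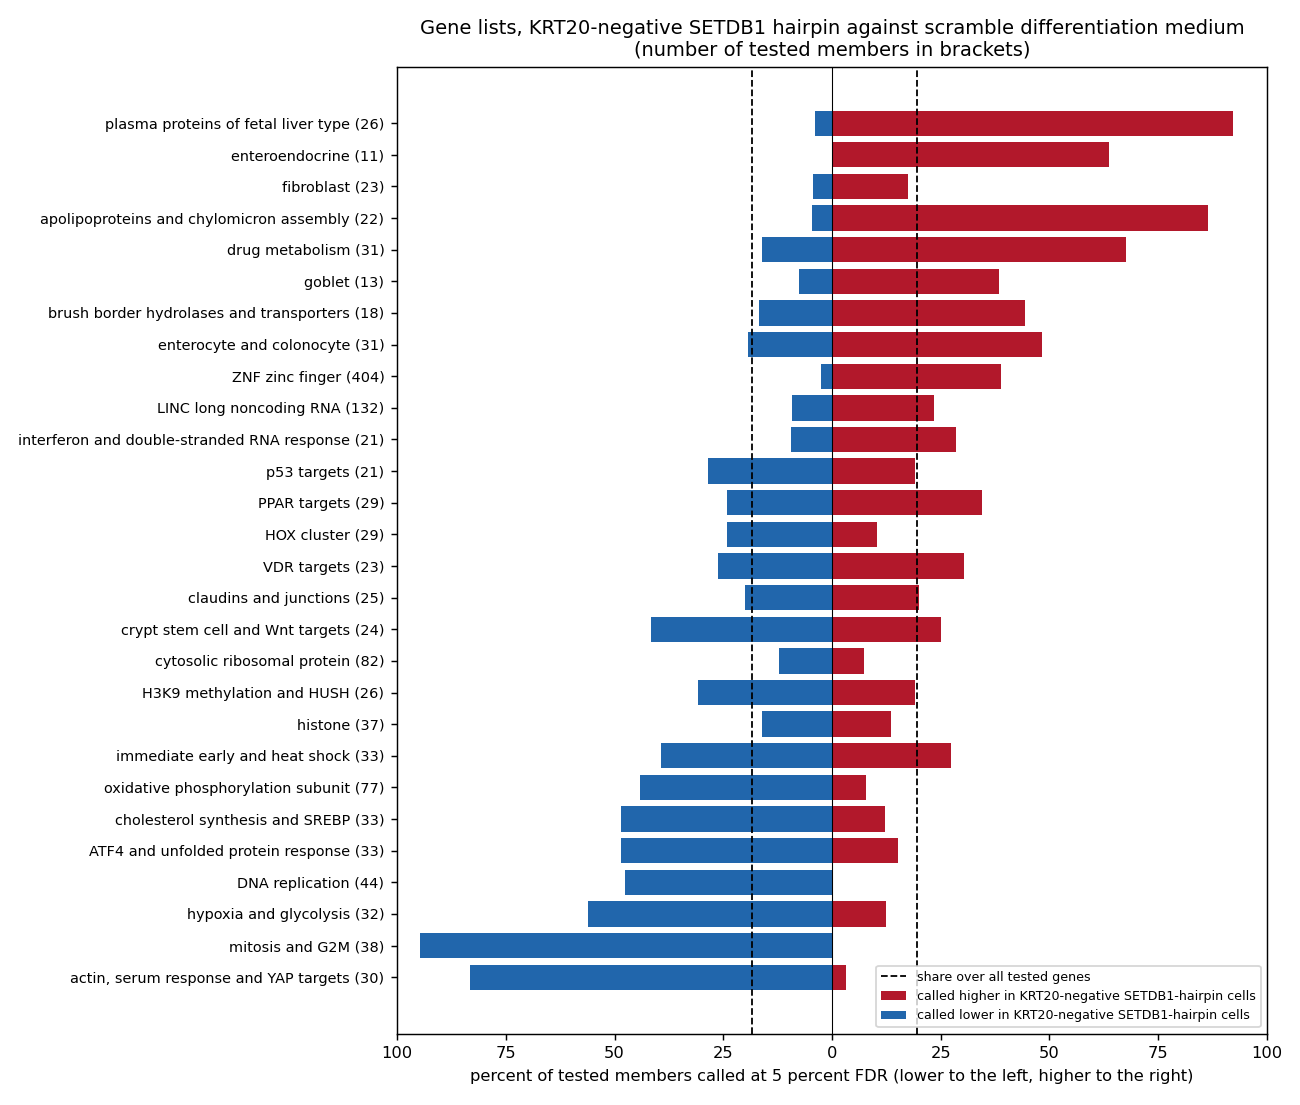
Percent of tested members (number in brackets) called higher (red, right) and lower (blue, left) in KRT20-negative SETDB1-hairpin cells against scramble cells in differentiation medium, for lists of at least 10 tested genes in order of median log2 fold change. Dashed lines mark the shares over all tested genes, 19.6 percent higher and 18.4 percent lower; plasma proteins (92.3 percent higher) and mitosis (94.7 percent lower) lie at the ends.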

How the data were processed

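QuantSeq libraries of Caco2 were used, 12 in 4 groups of 3, grouped by their titles. The authors deposited raw counts per gene symbol, 1 table per library; Bowtie2, edgeR and the hg19 build appear in the submitters' processing notes, with versions and counting settings not given in the sources used here. Of 25737 lines per table, 1561 that repeated 286 symbols were summed to leave 24462 symbols. All 12 libraries (6538087 to 10074838 counts) entered 1 robust quasi-likelihood fit of edgeR 4.0.16 in R 4.3.3, after filterByExpr and TMM scaling and with no replicate block and genes were called at 5 percent FDR over 13968. The SE comes from the fold change and its F statistic. Fold differences are ratios of mean CPM. The procedure was tested on simulated data of 13742 genes, with 100 changed 2-fold and 100 changed 4-fold. It called 77 percent of the former, 97 percent of the latter and 15 unchanged genes. Far fewer genes were changed there than were called in the data. The 33 gene lists, the comparison and the members were chosen with earlier results of these data known. Lists are described by counts and medians, with no test.

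Named genes are SETDB1 and KRT20, in each direction the 12 calls of largest size whose libraries did not overlap and whose higher mean reached 10 CPM, and of each list up to 5 calls of at least 5 CPM, taken by adjusted p. Other genes named were chosen after their values were seen, such as HNF4A, SRF, VDR, PPARG, RXRA, CYP24A1, TRPV6, CPT1A, CHGA, NEUROG3, NEUROD1, TF, SI, VTN, ISG15, MUC2, GUCY2C, COL6A3 and VIM, and the members called lower in a list. For length, some genes of the rule are left out. The same replicate numbers in both groups were checked for pairing. Deviations from the group means correlated at 0.154, 0.21 and 0.15 over 9422 genes for same-numbered libraries, and at -0.214 to -0.009 for others. Deviations from a group mean cancel within the group, so the negative values are no separate evidence. Numbers were taken to pair the samples, from the data and not from the labels, but the main fit leaves this pairing out. With a replicate block, 5782 genes were called in place of 5312, and 3455 in place of 2925 for the medium comparison. Alternatives were DESeq2 1.42.0, RLE size factors or library totals in place of TMM, no filter or one of 10 CPM in 3 libraries, a replicate block, a fit of the 2 compared groups alone, and leaving out each library. Repeat elements were not analysed here, and some items withheld for evaluation are not reported here. Promoter sequences and gene order come from RefSeq (GRCh38.p14), whose build differs from that of the files, so no gene coordinates were joined.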

Additional observations from a re-analysis of the deposited data

How the results depend on the processing

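Calls in the comparison of KRT20-negative SETDB1-hairpin cells with scramble cells in differentiation medium numbered 5312. Under any alternative run 0 of them were called in the opposite direction, and changes of sign without a call were not counted. Leaving out each library in turn gave 4448 to 5265 calls, 2271 to 2585 higher and 2161 to 2680 lower, 1156 to 1265 of at least 2-fold, and 2048 to 2419 for the medium comparison. Of 154 named genes, 140 were tested and kept direction and call under every alternative run, 6 did so wherever tested but fell below the filter of 10 CPM in 3 libraries, and 8 lost the call under at least 1 (TFF1, TFF2, CREB3L1, LYZ, MT1F, MT1X, PIWIL1 and LOX). Most named genes were picked for large size or small adjusted p in these data, so their stability says little of the other calls. Of all 5312 calls, 4284 to 4617 were kept in the same direction when 1 library was left out. With the 2 compared groups alone 4508 were kept. Requiring at least 10 CPM in 3 libraries leaves fewer genes to test, with 572 of at least 2-fold, and 15 higher and 6 lower LINC genes, against 31 and 12. With the replicate block, the ribosomal protein genes called lower numbered 16, against 10 without it; the block changed the call of no named gene and moved no other count of 10 or more by over 1.5 times. The ribosomal lower count ran from 6 (without KRT20-negative replicate 2 or scramble differentiation medium replicate 3) to 18 (without KRT20-negative replicate 3), and the cause was not tested. Its higher count of 6 became 10 without KRT20-negative replicate 1, 3 without its replicate 3 and 2 without scramble differentiation medium replicate 1. The higher share of the calls was 51.6 percent, and 57.3 percent with library totals in place of TMM factors. Genes near the floor of 3 counts are limited by depth.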

Other observations

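The HOXB cluster was lower as a neighbourhood. Of 29 tested HOX genes 7 were called lower (24.1 percent) and 3 higher (10.3 percent, 4 genes without KRT20-negative replicate 3). Over all tested genes these shares were 18.4 and 19.6 percent. All 7 lower ones lie in HOXB. There 8 consecutive tested genes of chromosome 17 from HOXB3 to HOXB9, with the antisense RNA HOXB-AS3, were called lower. HOXB8, a homeobox gene of posterior identity, stood at 5.02, 4.68 and 5.57 CPM in KRT20-negative cells, against 21.7, 18.1 and 25.3 CPM in scramble cells in differentiation medium and a mean of 2.35 CPM in vehicle. HOXB9 stood at 42.8, 39.2 and 32.3 CPM in KRT20-negative cells, against 77.6, 85.9 and 75.7 CPM in scramble cells and 22.9 CPM in vehicle. Unlike these genes, 4 of the 7 HOX genes called lower also lay below their mean in vehicle. Whether tags were counted by strand is not stated, so reads of HOXB genes and HOXB-AS3 cannot be told apart. Of 24 crypt stem cell and Wnt target genes, 10 were called lower (41.7 percent) and 6 higher (25 percent). Without KRT20-negative replicate 3 these counts were 8 and 5. DKK1, a secreted Wnt inhibitor that Wnt signalling induces, stood at 33.1, 32.2 and 22.5 CPM in KRT20-negative cells, against 91.2, 84.2 and 80.7 CPM in scramble cells and 227 CPM in vehicle. AXIN2 had a log2 fold change of -0.99, while the stem cell marker LGR5 did not pass the test, at -0.01 (SE 0.21). Members called higher included SMOC2, EPHB3, LRIG1 and SOX9. SMOC2 had a log2 fold change of 1.88 without KRT20-negative replicate 3. EPHB3, LRIG1 and SOX9 had 1.06, 0.44 and 0.35, and each lost the call without at least 1 library. The median over the list was -0.01.

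Oxidative phosphorylation subunits were lower by small amounts. Of 77 tested, 34 were called lower and 6 higher (38 and 5 without KRT20-negative replicate 3), with a median log2 fold change of -0.21, beside 2 lower and 34 higher for the medium. UQCRC2, a core subunit of complex III, stood at 244, 245 and 222 CPM in KRT20-negative cells, against 323, 319 and 331 CPM in scramble cells in differentiation medium and 214 CPM in vehicle. COX7C, of cytochrome oxidase, went the other way at a log2 fold change of 0.72. Of 82 cytosolic ribosomal protein genes 10 were called lower (12.2 percent) and 6 higher (7.32 percent). These counts moved with single libraries and with the replicate block, as given above. Of 132 tested LINC noncoding RNAs 31 were called higher (23.5 percent) and 12 lower (9.09 percent). Without KRT20-negative replicate 3 these counts were 27 and 13. Of the 104 LINC genes that passed the low-count filter in both kinds of cell, 25 were called higher and 9 lower. Immediate early and heat shock genes were split, with 9 higher (27.3 percent) and 13 lower (39.4 percent) of 33. Without KRT20-negative replicate 3, 12 were lower. FOSB had a log2 fold change of 1.68 and DUSP5 one of -1.90. Of 21 p53 targets 4 were higher (19 percent) and 6 lower (28.6 percent, 7 genes without KRT20-negative replicate 3). Over all tested genes 19.6 percent were called higher and 18.4 percent lower, so the higher share of the p53 targets is near the background.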
